A study of Homo sapiens with 12 samples.

Results

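The 7 genes described here, BEST1, ISG20, SERPINA3, HOPX, COL16A1, FBXO16 and MBNL2, were picked for large rises in mRNA with SMIP004, out of 8783 genes tested on Illumina bead arrays. They were picked on the SMIP004 and DMSO samples of these same arrays, so their SMIP004 levels are given as a description with no test. LNCaP-S14 cells, a line derived from LNCaP prostate cancer cells that carries extra SKP2 in all groups, were given 40 µM SMIP004, the vehicle DMSO, 50 nM bortezomib (BTZ, a proteasome inhibitor), 500 nM camptothecin (a topoisomerase poison that damages DNA) or 20 µM roscovitine (a CDK inhibitor) for 24 h. The sample labels call the cells LNCaP and give the time for SMIP004 alone, so the line and the other times come from the methods of the study. Every one of the 5 groups had 2 biological samples, and the 2 arrays hybridized with each SMIP004 sample were averaged. DMSO and SMIP004 lay on slide 1 and BTZ, camptothecin and roscovitine on slide 2, so for these 3 compounds the compound and the slide cannot be told apart in a comparison with DMSO.

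The 7 genes do not form 1 pathway. BEST1 encodes bestrophin-1, a calcium-activated chloride channel known from the retinal pigment epithelium. ISG20 is an exonuclease that degrades RNA and is induced by interferon, COL16A1 is the chain of a fibril-associated collagen, and HOPX is a small homeodomain protein that does not bind DNA and acts on transcription through partners such as SRF. FBXO16 belongs to the F-box proteins, the substrate receptors of SKP1-cullin ubiquitin ligases, as SKP2 does. MBNL2 is a muscleblind regulator of alternative splicing, and SERPINA3 is alpha-1-antichymotrypsin, a secreted protease inhibitor and acute phase protein of liver.

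Levels are log2 intensities after background correction and quantile normalization, and a gene counts as detected on an array at a detection p under 0.01. Mean intensity per array was 473 to 802, and 8737 to 9909 of 24526 probes were detected on each. Of 10 listed genes of prostate luminal epithelium, 8 had a named probe and 7 of these were detected on both DMSO arrays, as was SKP2. None of 5 fibroblast genes and none of the 3 leukocyte genes with a probe was detected with DMSO, although COL1A1 was on 8 of 12 arrays and CD14 on 4. Of 3 endothelial genes, PECAM1 and CDH5 were detected on no array and VWF on all 12. The roscovitine samples stood apart from each other. Across genes their difference had an SD of 0.77, against 0.13 to 0.22 in the other groups, and 1216 genes differed at least 2-fold between them. This spread enters the errors of every comparison, since all 10 samples were fitted together. Each log2 change is given with its standard error (SE) from limma (n = 2 samples per group), and p-values were adjusted over all genes by Benjamini-Hochberg. The samples are not stated to come from separate cultures, so p-values measure the spread between these samples.

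In the order of all genes by their change with SMIP004 against DMSO, the 7 genes stood among the first 11, with BEST1 1st and ISG20 4th. The order is approximate, since DMSO lay below detection for each of the 7 but ISG20. Between them stood DDIT3, which encodes the stress factor CHOP (log2 change 5.77), the keratin gene KRT80 (5.57), the autophagy gene WIPI1 (5.07) and the amino acid transporter subunit SLC3A2 (4.98). FBXO16 stood 11th at 4.58. AKR1C2, a steroid-reducing enzyme gene that stood 12th at 4.54, was not picked, and neither were the genes in between named above. The 7 genes have 11 probes on the array, 9 of which were detected on every array of at least 1 group. The remaining 2 are HOPX probes. SERPINA3 passed this filter through its SMIP004 arrays alone, as did 2 of the MBNL2 probes.

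Read over the 5 groups, the genes took 3 patterns. BEST1, ISG20 and COL16A1 were detected on every array of SMIP004, BTZ and camptothecin and were called higher than DMSO with both of the latter, BEST1 with camptothecin at a level far below those with SMIP004 and BTZ. HOPX, FBXO16 and MBNL2 were detected, by the brightest probe of each, on every array of SMIP004 and BTZ, lower with BTZ, and were near or below detection with camptothecin and roscovitine. SERPINA3 was detected on the SMIP004 arrays and on no other. More mRNA in each cell and more cells with the mRNA cannot be told apart in RNA from whole cultures.

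**Figure D1:**
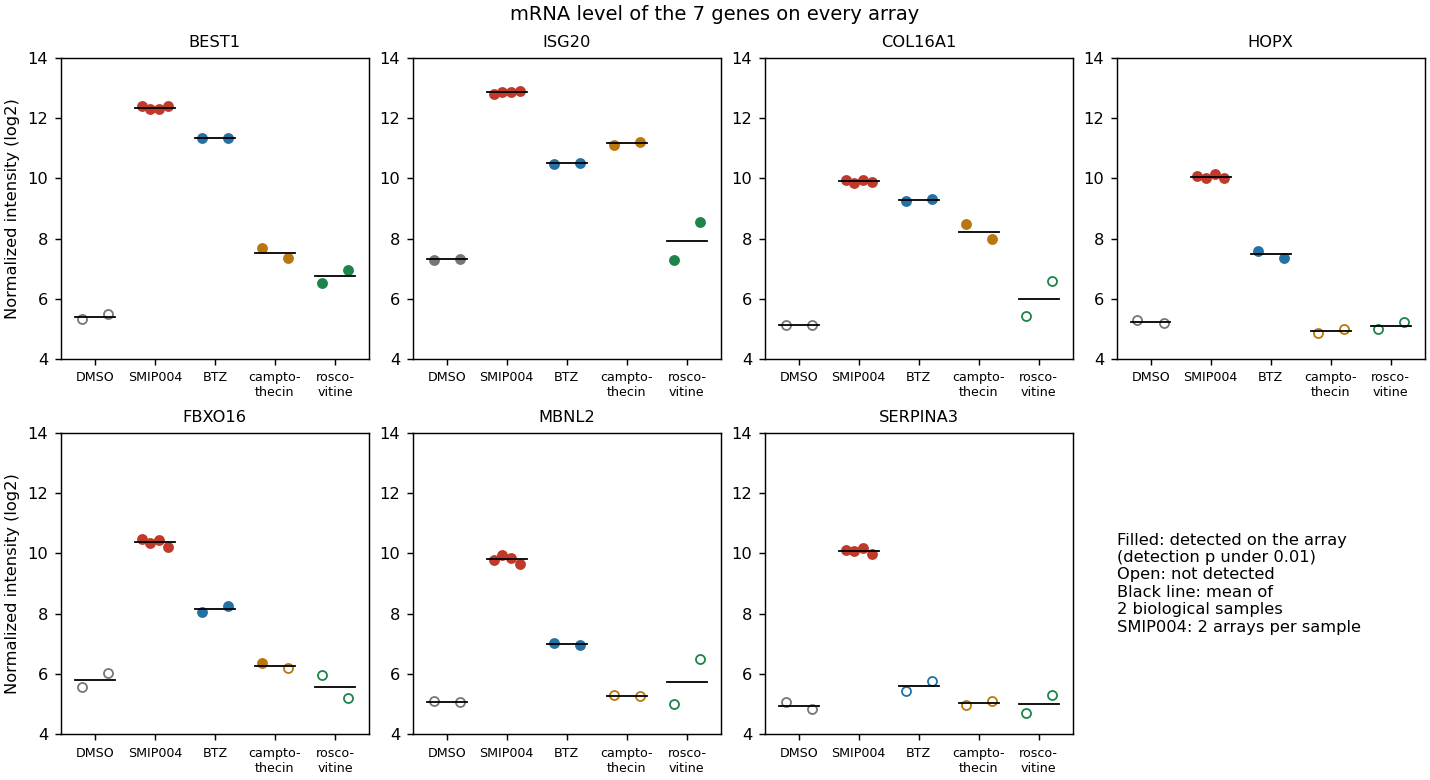
Normalized log2 intensity (y axis) of each gene on each of 12 arrays, by group (x axis). Filled points are detected and open points are not, and the line is the mean of 2 biological samples. SERPINA3 has filled points with SMIP004 alone, while ISG20 is filled in all 5 groups.

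Promoter sequence was looked at for the motifs of stress factors. RefSeq windows of 250 bases before and 50 after the start were found for 5 of the 7 genes, of GRCh38.p14. The AP-1 motif TGACTCA, searched on both strands, was present in 2 of 5, ISG20 and MBNL2, against 3.66% of 15843 promoters. The antioxidant motif TGACNNNGC was present in ISG20 alone, at 2 places, against 14.3% of promoters. The CRE (TGACGTCA), the amino acid response motif TTGCATCA, the unfolded protein response motifs ERSE (CCAAT, then 9 bases of any kind, then CCACG) and UPRE (TGACGTGG) and the TATA box (TATAAA) had no match in the 5 windows on either strand. Of all promoters, 2.59%, 0.669%, 0.12%, 0.833% and 9.63% held them, in this order. None of the matches overlapped another. The 250 bases before the start are shown for the 2 genes with AP-1 matches, of which ISG20 was called with camptothecin and MBNL2 was not. Capitals mark the matches, which are TGAGTCA (the AP-1 motif on the other strand), TGACTCGGC and GCTCCGTCA (the antioxidant motif on the given and on the other strand) in ISG20, and TGACTCA and TGAGTCA in MBNL2.
ISG20, chr15:88638766-88639015, plus strand: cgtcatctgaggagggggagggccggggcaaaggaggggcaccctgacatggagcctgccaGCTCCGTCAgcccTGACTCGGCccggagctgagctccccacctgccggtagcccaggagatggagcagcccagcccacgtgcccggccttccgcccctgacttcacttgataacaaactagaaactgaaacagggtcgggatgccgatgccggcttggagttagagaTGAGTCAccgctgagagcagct
MBNL2, chr13:97141584-97141833, plus strand: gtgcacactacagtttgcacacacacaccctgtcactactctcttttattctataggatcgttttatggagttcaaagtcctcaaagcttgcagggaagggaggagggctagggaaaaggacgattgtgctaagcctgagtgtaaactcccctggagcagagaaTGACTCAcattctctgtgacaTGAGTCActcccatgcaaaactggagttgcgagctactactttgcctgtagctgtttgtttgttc
The AP-1 match of ISG20 begins 22 bases before the start of its window, and those of MBNL2 86 and 65 bases before theirs. Each gene has 1 window, while RefSeq lists 7 transcripts of ISG20 and 55 of MBNL2. The ISG20 locus begins at 88635632, ahead of its window. Whether the transcripts read by the probes use these starts was not tested. A match is a run of letters and no measurement of binding.

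BEST1 had the largest difference between SMIP004 and DMSO of all genes tested and was called with each of the other compounds. Its level was 5.32 and 5.47 in the DMSO samples, where it was not detected, and 12.35 and 12.35 with SMIP004. With BTZ it was 11.36 and 11.35, with camptothecin 7.70 and 7.35, and with roscovitine 6.54 and 6.96. It was detected on every array of the 4 compounds, and no group overlapped another, so the levels ran from SMIP004 through BTZ, camptothecin and roscovitine to DMSO. Because DMSO lay below detection, the rise is given as a bound, which holds within the normalization used. The bound is the mean of the bright group over a floor. On each dim array the floor is the higher of the lowest detected signal and the gene's own signal. The rise was at least 59.1-fold with SMIP004 and at least 29.6-fold with BTZ (log2 change 5.95, SE 0.18, adjusted p = 1.21e-06 by limma). It was at least 2.08-fold with camptothecin (2.12, adjusted p = 4.43e-05 by limma) and at least 1.22-fold with roscovitine (1.35, adjusted p = 0.013 by limma). The roscovitine call was lost without DMSO replicate 1 (adjusted p = 0.137 by limma) or DMSO replicate 2 (0.0983). On slide 2 alone BEST1 was 14.2-fold higher with BTZ than with camptothecin (log2 difference 3.83, adjusted p = 1.88e-06 by limma). The step from roscovitine to camptothecin was small (0.78, SE 0.18, adjusted p = 0.00778 by limma) and was lost without camptothecin replicate 1 (0.60, adjusted p = 0.0572).

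ISG20 was the only gene of the 7 detected on all 12 arrays, and the one whose mean level was higher with camptothecin than with BTZ. Its level was 7.30 and 7.32 with DMSO, 12.84 and 12.90 with SMIP004, 10.48 and 10.52 with BTZ, and 11.13 and 11.21 with camptothecin. The roscovitine samples were 7.28 and 8.53, the first just below and the second above both DMSO samples. The mean was 47.0-fold higher with SMIP004 than with DMSO. It rose 9.14-fold with BTZ (log2 change 3.19, SE 0.33, adjusted p = 9.95e-05 by limma) and 14.5-fold with camptothecin (3.86, adjusted p = 5.5e-05 by limma). BTZ minus camptothecin was -0.66, with a 95% interval from -1.43 to 0.10 (adjusted p = 0.111 by limma), although the samples did not overlap. In a model without the roscovitine samples this difference passed (adjusted p = 5.15e-05 by limma), as it did without either roscovitine sample. Both BTZ (log2 difference 2.60, adjusted p = 0.000295 by limma) and camptothecin (3.26, adjusted p = 0.000163) lay above roscovitine on the same slide.

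COL16A1 had the same order of group means as BEST1. It was not detected with DMSO (5.14 and 5.11) and reached 9.89 and 9.92 with SMIP004, 9.25 and 9.30 with BTZ and 8.48 and 7.98 with camptothecin. With roscovitine it read 5.41 and 6.59 and was not detected on either array, which is 0.87 above DMSO (95% interval 0.10 to 1.65, adjusted p = 0.123 by limma). The rise was at least 10.8-fold with SMIP004, at least 7.02-fold with BTZ (log2 change 4.15, SE 0.34, adjusted p = 3.2e-05 by limma) and at least 3.40-fold with camptothecin (3.10, adjusted p = 0.000169 by limma). COL16A1 had the smallest gap between SMIP004 and BTZ of the 7 genes, a log2 difference of 0.63 with a 95% interval from -0.15 to 1.40. It was 2.07-fold higher with BTZ than with camptothecin (log2 difference 1.05, SE 0.34, adjusted p = 0.0243 by limma), a call lost without camptothecin replicate 2 (0.79, adjusted p = 0.146), BTZ replicate 1 (1.07, adjusted p = 0.0835) or BTZ replicate 2 (1.02, adjusted p = 0.0942). Camptothecin was at least 3.16-fold above roscovitine (log2 difference 2.23, adjusted p = 0.00116 by limma).

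HOPX, FBXO16 and MBNL2 shared a second pattern, with SMIP004 far above BTZ and BTZ above the rest. HOPX was read by the probe ILMN_2316236, with levels of 5.28 and 5.20 in DMSO, 10.05 and 10.07 with SMIP004 and 7.59 and 7.36 with BTZ. Camptothecin (4.85 and 4.99) and roscovitine (4.98 and 5.22) left it undetected. It was at least 12.1-fold higher with SMIP004 and rose at least 2.01-fold with BTZ (log2 change 2.23, SE 0.14, adjusted p = 1.15e-05 by limma). On slide 2, HOPX was at least 2.25-fold higher with BTZ than with camptothecin (log2 difference 2.56, adjusted p = 3.35e-06 by limma) and at least 1.87-fold higher than with roscovitine (2.37, adjusted p = 9.2e-06). Camptothecin minus DMSO was -0.32 below detection in both groups (adjusted p = 0.0724 by limma), and this value passed without roscovitine replicate 1 or roscovitine replicate 2 (adjusted p = 0.0202 in each).

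FBXO16 was undetected with DMSO, at 5.56 and 6.02. SMIP004 brought it to 10.41 and 10.33 and BTZ to 8.04 and 8.27. Camptothecin gave 6.35, which was detected, and 6.18, which was not, and roscovitine gave 5.95 and 5.18, both undetected. The difference from DMSO was at least 15.0-fold with SMIP004 and at least 3.23-fold with BTZ (log2 change 2.37, SE 0.26, adjusted p = 0.000123 by limma). With camptothecin it was 0.47 with a 95% interval from -0.12 to 1.07 (adjusted p = 0.141 by limma), and it passed without roscovitine replicate 1 or roscovitine replicate 2 (adjusted p = 0.0122 in each). BTZ stood above camptothecin, which was detected on 1 of 2 arrays, by a log2 difference of 1.89 (adjusted p = 0.000311 by limma) and at least 3.01-fold above roscovitine (2.59, adjusted p = 8.73e-05).

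MBNL2, by its brightest probe ILMN_2364272, read 5.09 and 5.05 with DMSO, 9.87 and 9.76 with SMIP004, 7.02 and 6.96 with BTZ, and 5.30 and 5.25 with camptothecin. The roscovitine samples were 4.98 and 6.50, which lie below and above both camptothecin samples, and neither was detected. The gene was at least 10.2-fold higher with SMIP004 and rose at least 1.44-fold with BTZ (log2 change 1.93, SE 0.40, adjusted p = 0.00317 by limma). Of the 7 genes it had the widest error. BTZ minus camptothecin was 1.72 (adjusted p = 0.00519 by limma). BTZ minus roscovitine was 1.25 (adjusted p = 0.0249 by limma), which was lost without BTZ replicate 1 (1.22, adjusted p = 0.0984) or BTZ replicate 2 (1.28, adjusted p = 0.0864). Camptothecin minus roscovitine had no settled direction. It was -0.47 (95% interval -1.38 to 0.45, adjusted p = 0.352 by limma), turned to 0.29 without roscovitine replicate 2 (adjusted p = 0.0497) and fell to -1.23 without roscovitine replicate 1.

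The probes of HOPX and MBNL2 did not all report the same. For HOPX, the probes ILMN_1735570 and ILMN_1766643, which the array annotation assigns to other transcripts of the gene, were detected on none of 12 arrays. The first read 5.77 and 5.79 with SMIP004 against 5.29 and 5.05 with DMSO, and the second read 4.68 and 4.69 against 4.95 and 4.88. The high HOPX level therefore rests on 1 of 3 probes. All 3 MBNL2 probes were detected on the 4 SMIP004 arrays and on no DMSO array. The probe ILMN_1658015 read 9.19 and 9.19 with SMIP004, against 5.19 and 4.89 with DMSO, and ILMN_1684316 read 6.76 and 6.60 against 4.74 and 4.70, so the SMIP004 difference was at least 6.60-fold by the first and at least 1.16-fold by the second. With BTZ these 2 probes stayed undetected, at 6.19 and 6.29 and at 4.98 and 5.30. Both passed the filter through their SMIP004 arrays alone. When every kept probe was fitted, BTZ minus DMSO was called for both (log2 change 1.20, adjusted p = 0.00899, and 0.42, adjusted p = 0.0319, by limma). Both groups lay below detection, so these calls do not establish a rise with BTZ. The MBNL2 level with BTZ was thus above detection by 1 of 3 probes.

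**Figure D2:**
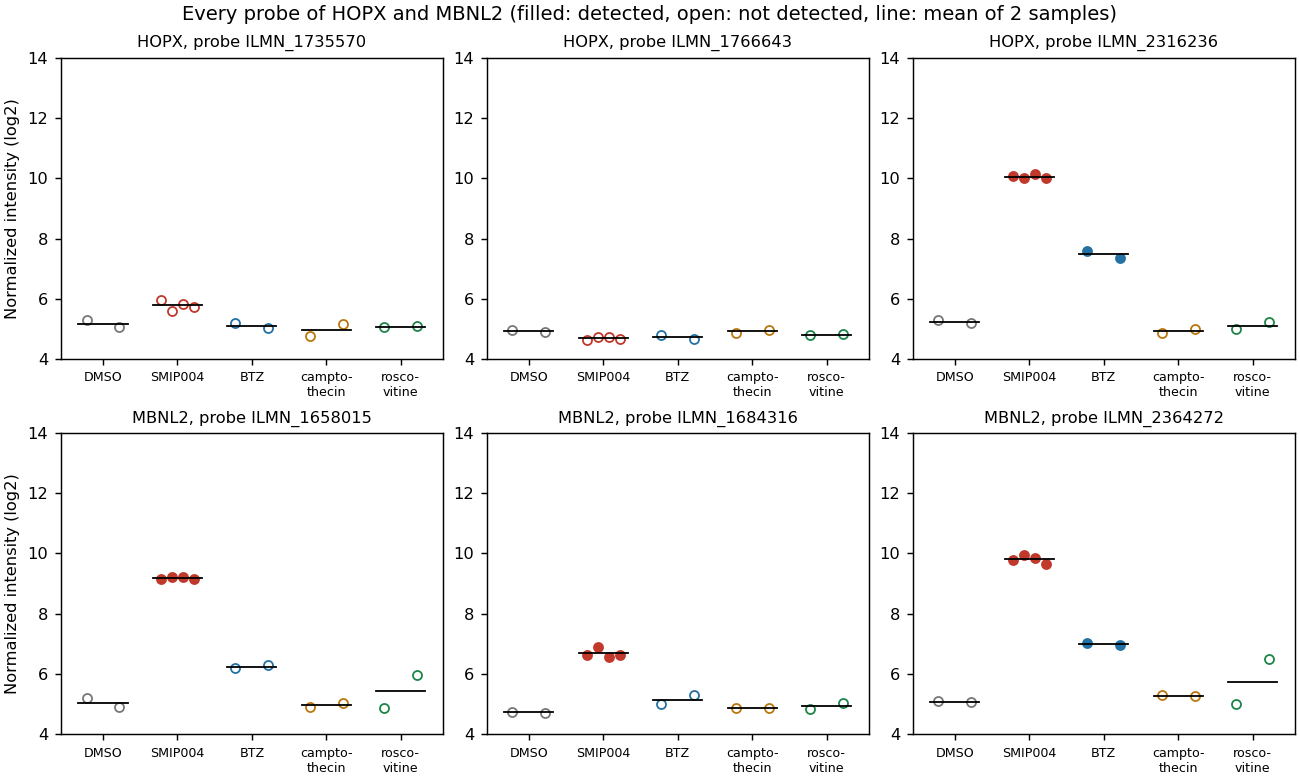
Normalized log2 intensity (y axis) of the 3 HOPX probes (upper row) and the 3 MBNL2 probes (lower row) on 12 arrays, by group (x axis), filled where detected, with a line at the mean of 2 samples. HOPX has 1 probe with filled points, and all 3 MBNL2 probes are filled with SMIP004.

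SERPINA3 was detected with SMIP004 alone. It read 10.10 and 10.08 with SMIP004 and was detected on all 4 of its arrays. It read 5.05 and 4.82 with DMSO, 5.43 and 5.76 with BTZ, 4.98 and 5.10 with camptothecin, and 4.71 and 5.28 with roscovitine, and was detected on none of these 8 arrays. SMIP004 was at least 12.3-fold above DMSO, at least 9.58-fold above BTZ, at least 13.8-fold above camptothecin and at least 11.5-fold above roscovitine, all as a description. BTZ minus DMSO, 0.66 on the log2 scale, passed the test (SE 0.21, adjusted p = 0.022 by limma) although both groups lay below detection, so no fold is given. That call was lost without DMSO replicate 2 (0.54, adjusted p = 0.123) or BTZ replicate 2 (0.49, adjusted p = 0.139), and with the deposited log2 values (0.44, adjusted p = 0.0524). The calls of BTZ over camptothecin (0.55, adjusted p = 0.0426) and over roscovitine (0.59, adjusted p = 0.0353) were likewise between undetected groups, and each was lost when either DMSO sample, either SMIP004 sample, either camptothecin sample or BTZ replicate 2 was left out, the second also without roscovitine replicate 1. The adjusted p then lay between 0.0592 and 0.227 for the first and between 0.0508 and 0.197 for the second. Camptothecin and roscovitine differed from DMSO by 0.10 (95% interval -0.37 to 0.58) and 0.06 (-0.41 to 0.53).

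Counted together, all 7 genes were called higher with BTZ than with DMSO, where 31.7% of all genes were, and their samples did not overlap in 7 of 7, as in 87.6% of all genes. SERPINA3 is among the 7 with both groups below detection, and without DMSO replicate 2 or BTZ replicate 2 (adjusted p = 0.123 and 0.139 by limma) or with the deposited log2 values (0.0524) or no background correction (0.0525) the count was 6. Their median log2 change was 2.37, against -0.01 over all genes. With camptothecin 3 of 7 were called higher (31.7% of all genes) and the median was 0.47, and the samples of 6 of 7 did not overlap (86.7% of all genes). With roscovitine BEST1 was called, 1 of 7 (3.48% of all genes called higher, 7.67% in either direction), the median was 0.60, and the samples of 2 of 7 did not overlap (54.4%). Leaving out roscovitine replicate 1 leaves 1 roscovitine sample. The log2 change was then 1.22 for ISG20, 1.46 for COL16A1, 1.43 for MBNL2 and -0.61 for FBXO16. BEST1 was at 1.27 without DMSO replicate 1 and at 1.42 without DMSO replicate 2, and its call was lost in both. These comparisons share their DMSO samples with each other and with the choice of the genes.

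**Figure D3:**
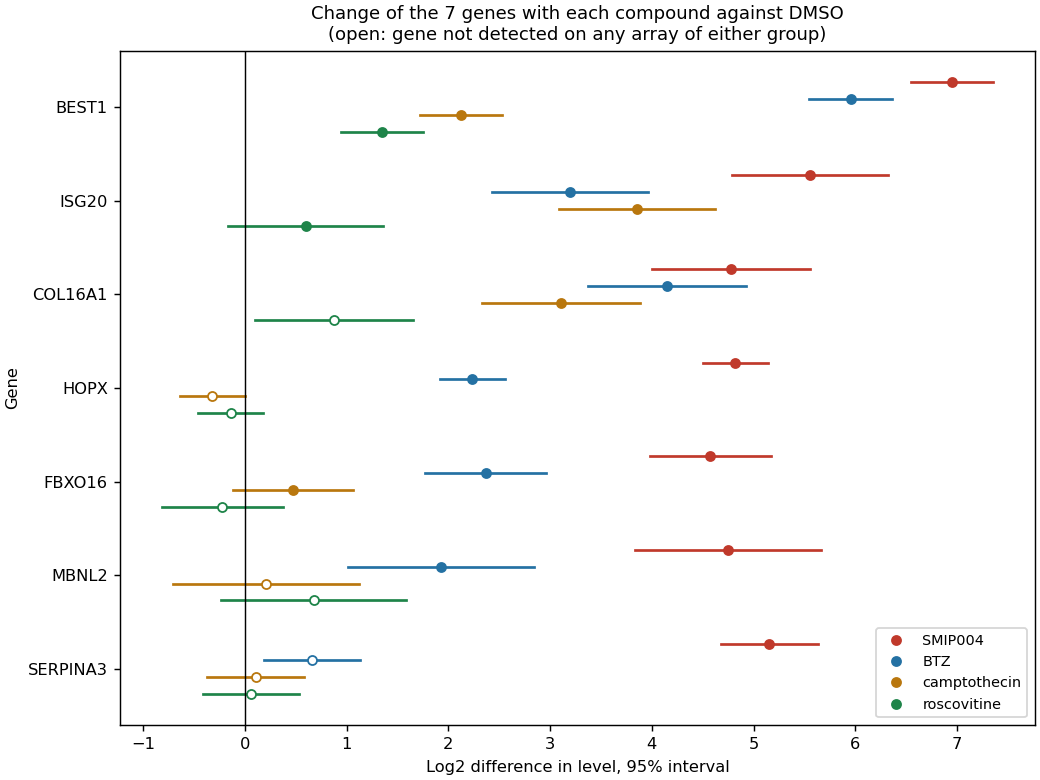
Log2 difference from DMSO (x axis) of each gene (y axis) with SMIP004, BTZ, camptothecin and roscovitine. Points are limma estimates from 2 samples per group, lines are 95% intervals, and open points mark genes undetected in both groups. The SMIP004 points are the values the genes were picked on, and the interval of camptothecin is to the right of 0 for BEST1, ISG20 and COL16A1.

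The differences between the compounds of slide 2 hold no value of the DMSO and SMIP004 samples that chose the genes, although those samples enter the error of the model and SERPINA3 was tested only through its SMIP004 arrays. There, 6 of 7 genes were called higher with BTZ than with camptothecin (32.8% of all genes), the exception being ISG20, and the median log2 difference was 1.72 against 0.01 over all genes. All 7 were called higher with BTZ than with roscovitine (29.8% of all genes), with a median of 2.59. SERPINA3 is among the genes called in both, below detection, and its calls were lost when any DMSO or SMIP004 sample was left out. Both were also lost with the deposited log2 values, arrays scaled to 1 median, no background correction, a larger offset or no filter. The adjusted p by limma was then 0.0607 to 0.115 against camptothecin and 0.0521 to 0.0652 against roscovitine. Camptothecin stood above roscovitine for BEST1, ISG20 and COL16A1, 3 of 7 (24.0% of all genes). Calls in either direction were the same 3 of 7 (48.4% of all genes). Without camptothecin replicate 1 the log2 difference of BEST1 was 0.60 and its call was lost. Without roscovitine replicate 1, which leaves 1 roscovitine sample, the log2 difference was 1.08 for FBXO16 and -1.23 for MBNL2.

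**Figure D4:**
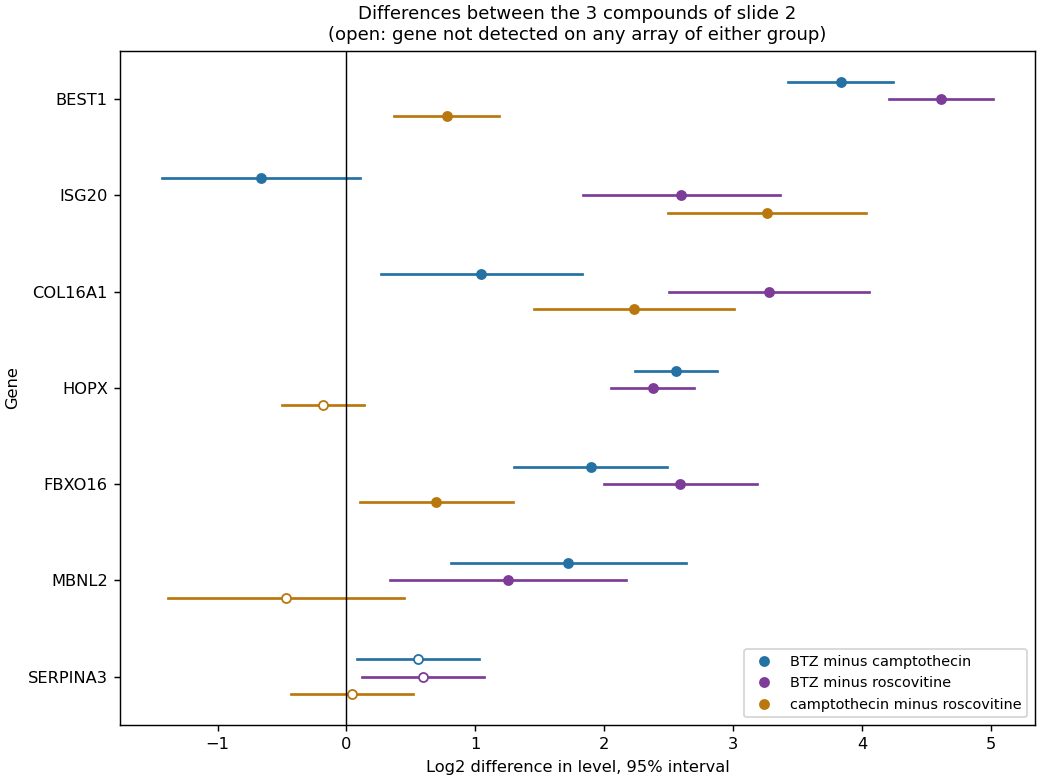
Log2 difference (x axis) between the compounds of slide 2 for each gene (y axis), with 95% intervals from limma and open points where both groups were undetected. BTZ lies above camptothecin for 6 of 7 genes, and ISG20 lies on the other side of 0 at -0.66.

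As a description, SMIP004 exceeded BTZ by a log2 difference of 1.00 for BEST1 and 0.63 for COL16A1, by 2.21 to 2.82 for FBXO16, ISG20, HOPX and MBNL2. SERPINA3 was undetected with BTZ and has only the bound given above. These samples lay on different slides. The paired arrays of each SMIP004 sample differed by 0.03 to 0.22 for the probes that represent the 7 genes.

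Across the 10 samples the levels of the 7 genes were correlated to unequal degrees. The highest correlation within the set was between FBXO16 and HOPX (Pearson r = 0.97), and the lowest was between COL16A1 and SERPINA3 (r = 0.67). The points are 5 groups of 2 samples, so these values describe group patterns. They include the SMIP004 and DMSO samples that the genes were picked on, so high values among the 7 genes and with other genes raised by SMIP004 follow in part from the choice. Among all genes tested, the pattern of BEST1 was closest to those of SELENOK, a selenoprotein of the endoplasmic reticulum (ER) (r = 0.995), the membrane protein gene SEZ6L2 (0.992) and DNAJB9, an ER co-chaperone (0.991). That of MBNL2 was closest to DERL2 (0.997), CD55 (0.992) and SYVN1 (0.990). DERL2 and SYVN1 serve the disposal of misfolded ER proteins and CD55 restrains complement. COL16A1 was closest to MAP1LC3B, an autophagosome gene (0.989), DDIT3 (0.988) and CTH, an enzyme of cysteine synthesis (0.986). HOPX was closest to GHITM, of the mitochondrial inner membrane (0.997), GFPT1, the first enzyme of the hexosamine pathway (0.995), and WIPI1 (0.995). FBXO16 was closest to GMPPA, of GDP-mannose metabolism (0.993), WDFY2 (0.991) and ARL9 (0.989). ISG20 was closest to FAM120AOS (0.992), BEX2 (0.990) and POLD4, a DNA polymerase subunit gene (0.989). SERPINA3 was closest to CPXM2 (0.997), SPX, a peptide hormone gene (0.997), and COPE, a coatomer subunit gene (0.994).

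Relatives of the 7 genes were counted from lists by family and function, leaving the 7 genes out. Of 18 tested interferon-stimulated genes other than ISG20, 6 rose and 3 fell with SMIP004, where 28.7% of all genes rose and 29.9% fell. Among them MX1, an antiviral GTPase, rose by 1.60 on the log2 scale, and IRF1, an interferon regulatory factor, and GBP2, a guanylate-binding protein, rose at least 1.08-fold and at least 1.03-fold. With BTZ 7 of the 18 rose while 4 fell (31.7% and 32.8% of all genes), with GBP2 at least 10.9-fold up. With camptothecin 17 of 18 rose and 1 fell (31.7% of all genes in each direction), among the risen IFIT2 (at least 17.1-fold), IFIT3 (at least 7.47-fold) and the ubiquitin-like modifier ISG15 (log2 change 4.42), and the median log2 change was 2.73. On slide 2, 17 of 18 were higher with camptothecin than with roscovitine. The array holds 31 of these genes, and the 18 tested were detected on every array of at least 1 group. This filter favours genes that a compound raised. Without a filter 21 of 31 were called higher and 1 lower with camptothecin than with DMSO, with a median of 1.12. The share of all genes called without a filter is not given. ISG20 itself stood at a log2 change of 5.55 with SMIP004 and 3.86 with camptothecin. Without the roscovitine samples, 9 of the 18 rose and 5 fell with SMIP004. The share of all genes called in that model is not given, so these counts cannot be set beside 28.7% and 29.9%. Calls grew in another list too, where 9 of 21 FBXO genes rose and 7 fell, against 7 and 4 in the full model. Of 8 tested exonucleases related to ISG20, 5 rose and 1 fell with SMIP004, among them AEN, a nuclease induced by p53 (log2 change 1.09), which rose with BTZ (1.61) and camptothecin (1.43) too.

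Of 7 tested serpins other than SERPINA3, 2 rose with SMIP004, a share near the 28.7% of all genes. These were SERPINB8, an intracellular protease inhibitor (at least 6.22-fold), which rose with BTZ (at least 7.69-fold) and camptothecin (at least 4.04-fold) too, and SERPINA1, alpha-1-antitrypsin (at least 1.18-fold). SERPINA1 changed by 0.05 with BTZ and -0.09 with camptothecin on the log2 scale and was not called with either. With camptothecin 6 of 7 serpins rose, but the filter favours genes that a compound raised. SERPINA7, for one, was detected on both camptothecin arrays and on no DMSO, BTZ or roscovitine array. The array holds 27 serpins other than SERPINA3. Without a filter 8 of 27 were called higher with camptothecin, with a median log2 change of 0.04, so no rise of the family as a whole is shown. Of 22 acute phase protein genes on the array other than SERPINA3, 3 passed the filter, and 2 of these rose with SMIP004. They were SERPINA1 and LCN2, an iron-siderophore binding lipocalin. LCN2 rose at least 6.63-fold with SMIP004 and at least 2.34-fold with BTZ. Without a filter 4 of 22 were called higher with SMIP004.

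The shares of all genes given for the interferon-stimulated genes apply to each list. Of 9 tested collagen genes other than COL16A1, 2 rose and 4 fell with SMIP004, and 1 rose and 4 fell with BTZ. With camptothecin 6 rose and 2 fell. COL18A1, among the 4 that fell with SMIP004, was undetected in both groups, so no fall is established for it. The array holds 37 of these genes, and the filter favours those that a compound raised. Without a filter 9 of 37 were called higher and 3 lower with camptothecin, with a median log2 change of 0.05. COL1A1, a chain of type I collagen and a fibroblast marker detected on 8 of 12 arrays, rose at least 1.88-fold with SMIP004 and at least 1.95-fold with BTZ, while COL4A6, a basement membrane chain, fell at least 1.85-fold and at least 1.39-fold. The other 4 fibroblast genes listed were detected on no array. Of 21 FBXO genes other than FBXO16, 7 rose and 4 fell with SMIP004, and 9 rose and 6 fell with each of BTZ and camptothecin. FBXO4 (log2 change 1.79) and FBXO8 (1.24) led the rises with SMIP004, and FBXO32, known as atrogin-1 in muscle, rose at least 4.11-fold with BTZ and at least 5.66-fold with camptothecin.

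Of 9 bestrophin and calcium-activated chloride channel genes other than BEST1, 2 rose and 3 fell with SMIP004, with ANO10, of the anoctamin family, up by 0.85 and TTYH3 at -2.09. BEST4, another bestrophin, is counted among the 2 that rose with SMIP004 (log2 change 0.81, adjusted p = 0.00423 by limma). It was undetected with DMSO (mean 4.77), and its SMIP004 mean lay below the lowest detected signal of each SMIP004 array. That call therefore does not establish a rise with SMIP004. BEST4 was also called higher with BTZ (2.03, detected on 1 of 2 arrays) and with camptothecin, by at least 3.75-fold. Of 9 partners of HOPX and SRF cofactors, 2 rose and 6 fell with SMIP004. FHL2, a LIM-domain cofactor, rose at least 1.08-fold with SMIP004, at least 2.45-fold with BTZ and at least 2.75-fold with camptothecin, and the deacetylase gene HDAC1 fell by 1.17 on the log2 scale with SMIP004. MBNL1, the paralog of MBNL2, was called lower with every compound. It changed by -0.74 with SMIP004, -0.63 with BTZ, -1.74 with camptothecin and -0.60 with roscovitine (adjusted p = 0.045 by limma). MBNL2 was not called with camptothecin or roscovitine.

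**Figure D5:**
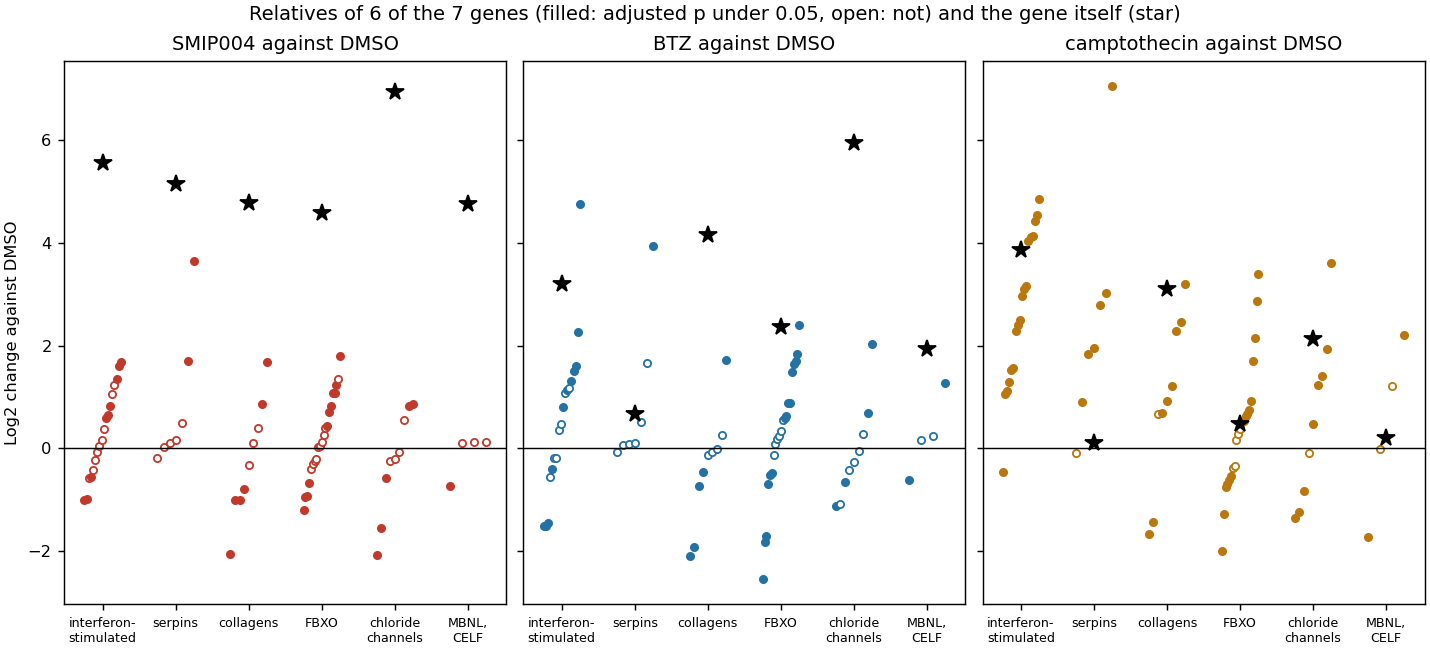
Log2 change against DMSO (y axis) of the tested relatives of 6 of the genes (x axis, grouped by list) with SMIP004, BTZ and camptothecin. Each point is a gene, filled at an adjusted p under 0.05, and the star is the gene itself. The stars with SMIP004 are the values the genes were picked on. With camptothecin 17 of the 18 interferon-stimulated genes that passed the filter lie above 0.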

How the data were processed

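RNA was measured on 12 HumanRef-8 v2 bead arrays. Per the study's methods, the authors scanned them and summarized them with the BeadStation software. The authors deposited 1 intensity per probe and array, not normalized, each with a detection p-value computed against negative controls. A table of quantile-normalized log2 values that the authors deposited beside them served here as an alternative. No genome build applies to these values.

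The neqc function (limma 3.58.1, R 4.3.3) corrected the intensities for background through the detection p-values, added an offset of 16, applied quantile normalization and took log2. A probe was kept where all arrays of 1 group or more had a detection p under 0.01 (11111 probes). Of all probes, 21834 had 1 gene and 2692 were not named. Names were updated through RefSeq (99.9% of gene IDs matched). For each of 1141 genes with several kept probes, the one with the highest mean was used. Technical arrays were averaged, and 10 samples were fitted by lmFit and eBayes with a mean per group (5 residual and 2.95 prior degrees of freedom). Benjamini-Hochberg adjustment ran over 8783 genes, at 0.05. The script was tested on simulated data. The number of arrays limits the precision.

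The members and lists were chosen with earlier results of these data known. Named genes were the members, the genes among the 12 largest SMIP004 changes, up to 3 called genes of largest change per list and the 3 genes most correlated with each member. Replicate numbers did not pair the samples. Figures were drawn with matplotlib 3.10.9 in Python 3.11.15. Alternatives changed the normalization, the filter, the probe, the technical arrays, the samples, the moderation and the block, and left out each sample in turn.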

Additional observations from a re-analysis of the deposited data

How the results depend on the processing

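The 27 calls of the 7 genes were recomputed under the alternatives, giving 610 values, of which 569 kept direction and call, 41 lost the call and 0 turned direction. Most lost calls were those of SERPINA3 below detection. The SMIP004 differences were lowest with the deposited log2 values, from 3.49 for MBNL2 to 5.73 for BEST1, against 4.75 and 6.95. For BEST1 (5.73) and FBXO16 (3.59) the deposited values gave less than the bounds stated above, which hold within the main normalization. Most change came from roscovitine. Over all genes, 674 were called for roscovitine against DMSO, 346 with arrays scaled to 1 median, 332 with the replicate number as a block, and 0 by limma with only the groups compared (1059 at an unadjusted p under 0.05). This count ran from 0 (without either DMSO sample, 1599 and 1689 at an unadjusted p under 0.05) to 4986 (without roscovitine replicate 1) when a sample was left out, and the count of members from 0 to 5. With only the groups compared, 0 members were called for roscovitine against DMSO (1 at an unadjusted p under 0.05), 5 for camptothecin against DMSO, and over all genes 3259 for BTZ against roscovitine (5270 in the full model) and 1582 for camptothecin against roscovitine (4255). Without the roscovitine samples 5 members were called for camptothecin against DMSO, against 3. In both models the added genes were FBXO16, higher (0.47), and HOPX, lower (-0.32) with both groups below detection, so the 5 were not all rises. The share of all genes called in these models is not given. Without roscovitine replicate 1, camptothecin minus roscovitine moved to 1.08 for FBXO16 and -1.23 for MBNL2, and without camptothecin replicate 1 to 0.60 for BEST1.

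Among lists, the genes called without a filter were 2 serpins and 8 collagens with BTZ, and 4 and 3 acute phase genes with SMIP004 and camptothecin. Without the roscovitine samples they were 7 chloride channel genes and 3 serpins with BTZ and 14 interferon-stimulated genes with SMIP004. The shares of all genes called in these models are not given. Values that were not called and turned sign are given as the range over the models that leave out 1 sample. SERPINA3 ran from -0.0089 (without DMSO replicate 2) to 0.22 for camptothecin against DMSO, from -0.22 (without roscovitine replicate 2, and -0.05 without DMSO replicate 2) to 0.35 for roscovitine against DMSO, and from -0.24 (without roscovitine replicate 1, and -0.02 without camptothecin replicate 2) to 0.33 for camptothecin against roscovitine. FBXO16 ran from -0.61 to 0.16 (without roscovitine replicate 2), ISG20 from -0.031 (without roscovitine replicate 2) to 1.22 and MBNL2 from -0.084 (without roscovitine replicate 2) to 1.43 for roscovitine against DMSO, and MBNL2 from -1.23 to 0.29 (without roscovitine replicate 2) for camptothecin against roscovitine. The cause was not tested. Where a sample left a group with 1, that sample was assumed to vary like the other groups. Replicate numbers are shared between groups, but deviations of same-numbered samples correlated at -0.19 to 0.09, and the block changed no call of the 7 genes. Levels below detection carry no fold.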
